A study of Homo sapiens with 6 samples.

Results

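Short-read RNA-seq was examined for the replication licensing factors MCM2, MCM3, MCM4, MCM5, MCM6, MCM7, MCM10, CDC6, CDT1 and GMNN in A549 cells, a human lung adenocarcinoma line. These 10 genes were taken by name as the listed origin licensing genes, out of 34957 genes in the deposited tables, and the level of each gene is the sum over its transcripts. Cells had been transfected for 48 h with a control siRNA (si-ctrl) or with 1 of 2 siRNAs against the long noncoding RNA PLANE (si-PLANE.1 and si-PLANE.2), with 2 libraries per group. All groups were of the same parental line, so the control cells carried the transfection but no PLANE siRNA. PLANE itself is not analysed here, so the knockdown was not checked in these libraries.

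Licensing is the loading of the replicative helicase onto origins of DNA replication before S phase. The origin recognition complex binds DNA and recruits CDC6, an ATPase, which together with CDT1 places the ring of MCM2 to MCM7 onto the duplex. Geminin, the product of GMNN, binds CDT1 and blocks further loading once S phase has begun, and MCM10 acts later, when the loaded helicase is activated by CDC45 and the GINS complex. Several of these genes are known targets of the E2F transcription factors, whose activity rises as cells leave G1.

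To describe the start sites of the members, their promoter windows were read from RefSeq (GRCh38.p14), each holding 250 bases before and 50 bases after the start site. Windows of 8 of the 10 genes were used. MCM5 had no entry, and MCM4 was left out of this description by choice and is not reported here. The E2F motifs searched, on both strands, were TTTCGCGC, TTTGGCGC, TTTCCCGC and TTTGCCGC, of which the first 2 can overlap when they face each other. A match was found in 7 of the 8 genes, against 3.99% of the 27305 genes and 3.31% of the 35116 windows in the table. The stretches that hold the match nearest to the start site are shown for these 7 genes. The E2F match is in capitals, and positions are counted from 1 at the start site.
MCM2, chr3:127598383-127598440, plus strand, positions -28 to 30: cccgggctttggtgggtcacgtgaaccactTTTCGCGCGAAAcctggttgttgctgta
MCM3, chr6:52284713-52284776, minus strand, positions -34 to 30: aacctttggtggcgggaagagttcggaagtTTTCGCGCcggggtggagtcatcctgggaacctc
MCM6, chr2:135876492-135876625, minus strand, positions -182 to -49: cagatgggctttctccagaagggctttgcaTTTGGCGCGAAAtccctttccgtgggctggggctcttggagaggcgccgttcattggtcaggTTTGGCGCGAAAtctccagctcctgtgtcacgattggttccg
MCM7, chr7:100101369-100101436, minus strand, positions -39 to 29: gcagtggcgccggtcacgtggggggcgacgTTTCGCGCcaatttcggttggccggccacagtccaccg
CDC6, chr17:40287856-40287908, plus strand, positions -23 to 30: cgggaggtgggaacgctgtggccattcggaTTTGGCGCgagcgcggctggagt
CDT1, chr16:88803724-88803791, plus strand, positions -65 to 3: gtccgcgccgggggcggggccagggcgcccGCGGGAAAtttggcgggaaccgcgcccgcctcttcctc
GMNN, chr6:24775303-24775370, plus strand, positions -110 to -43: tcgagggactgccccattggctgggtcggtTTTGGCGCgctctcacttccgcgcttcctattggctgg
In MCM6, 4 matches formed 2 facing pairs, at positions -152 and -148 and at -90 and -86, and in MCM2 a facing pair lay at positions 3 and 7. MCM3 and MCM7 each held a further match, TTTCCCGC, at -174 and -187. For GMNN and MCM7 the match was in the window of 1 start site only, since the other windows of these genes held none, and MCM10 held none of the E2F letters. CCAAT, the letters recognised by NF-Y, was present in 6 of the 8 genes against 39.7% of all genes, and TTTGAA, a form of the cell cycle homology region, was in 0 of the 8 against 18.2%, while its other form searched, TTCGAA, was in 1 of the 8 (MCM6) against 1.82%. These are matches of letters within a fixed window, not measured binding sites.

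The deposited expected counts per library were 13643800 and 14267231 in si-ctrl, 11093137 and 10572151 in si-PLANE.1, and 20778431 and 18281765 in si-PLANE.2. Depth thus went with the group, lowest in si-PLANE.1 and highest in si-PLANE.2. Each member was supported by 97 to 7232 counts in every library. Of 9 genes that mark A549 or epithelial cells, 8 or 9 reached 1 FPKM (a level scaled to transcript length and library depth) in each library, whereas the leukocyte markers PTPRC and CD3E were at 0 to 0.02 FPKM. Among further markers, CD14 was at 4.06 to 9.41 FPKM, LYZ at 0.52 to 1.3 FPKM, the fibroblast gene COL1A1 at 3.29 to 13.1 FPKM and COL3A1 at 0.03 to 1.82 FPKM, and DCN, PDGFRA, VWF and CDH5 were at 0 to 0.56 FPKM. The si-PLANE.2 libraries stood apart: the median of 12 histone genes whose mRNA has no poly(A) tail was 0.36 and 0.4 FPKM there, 164 and 194 FPKM in control cells, and 86.1 and 127 FPKM after si-PLANE.1. The methods name poly(A) selection or rRNA removal without saying which library had which, so for every si-PLANE.2 value the siRNA and the library preparation cannot be told apart. The summed level of 15 housekeeping genes was 15380 to 16350 FPKM in control cells, 13310 to 15880 FPKM after si-PLANE.1 and 18450 to 18920 FPKM with si-PLANE.2. Nothing in the labels says that replicates came from separate cultures, so p-values measure the spread between these libraries, which may be technical.

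In control cells, the licensing genes spanned a 15.1-fold range of levels. In gene totals MCM4 was highest, with a mean of 139 ± 37.2 FPKM (SD, n = 2), followed by MCM7 at 83.2 ± 5.18 FPKM, MCM5 at 37.0 ± 2.91 FPKM, MCM3 at 30.8 ± 2.83 FPKM and CDT1 at 23.3 ± 1.19 FPKM. MCM2 at 18.1 FPKM, MCM6 at 16.8 FPKM, GMNN at 16.4 FPKM and CDC6 at 14.1 FPKM came next, and neighbours among these overlapped in their 2 libraries. MCM10 was lowest at 9.21 FPKM. The place of MCM4 rested on its short transcripts: when the transcript with the most counts stood for each gene, MCM7 led at 44.1 and 34.3 FPKM, above MCM4 at 29.9 and 26.0 FPKM. Among all genes tested, these levels lay between the percentile 43.2 for MCM10 and the percentile 95.7 for MCM4. The control libraries were not equally close for all members: library 1 was 1.64 times library 2 for GMNN, 1.47 times for MCM4 and 1.46 times for MCM6, and 1.02 times for MCM2.

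**Figure D1:**
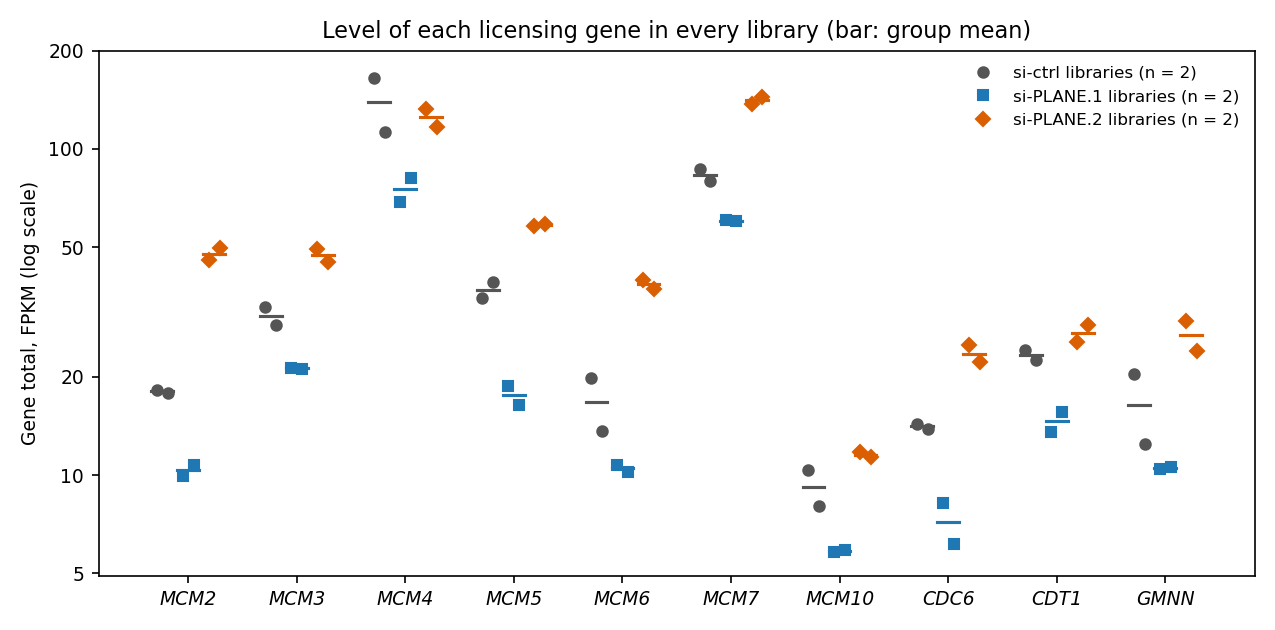
Gene totals in FPKM (log scale) of the 10 licensing genes in the 2 libraries of each group, with a bar at the group mean. The si-PLANE.1 libraries lay below both si-ctrl libraries for each of the 10 genes, and the si-PLANE.2 libraries lay above both for 9, with MCM4 overlapping.

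All 10 genes were lower after si-PLANE.1 than in si-ctrl, with values that did not overlap in FPKM, but none passed the adjusted threshold of edgeR's quasi-likelihood test. The log2 fold changes ran from -0.95 (MCM2) to -0.57 (MCM3) with a median of -0.77, while the median over all 14535 genes tested was 0.0018. At an unadjusted p under 0.05, 10 of 10 members were lower, against 5.77% of all genes tested. At an adjusted p under 0.05, 0 of 10 members were lower, against 0.0275% of all genes tested, which is 4 genes. DESeq2 called 7 of the 10 lower at an adjusted p under 0.05, against 0.612% of all genes. The FPKM of 14.2% of all genes was lower in both si-PLANE.1 libraries than in either si-ctrl library.

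Among the subunits of the helicase ring, MCM2 (ENSG00000073111, chr3:127317253-127341279 in hg19) was at 18.2 and 17.9 FPKM in control cells and at 9.92 and 10.8 FPKM after si-PLANE.1. Its log2 fold change was -0.95 ± 0.14 (SE), with an unadjusted p of 0.000187 and an adjusted p of 0.209 in edgeR. MCM5 (ENSG00000100297, chr22:35796127-35821424) was at 35.0 and 39.1 FPKM in control cells and at 18.8 and 16.4 FPKM after si-PLANE.1, a log2 fold change of -0.88 ± 0.13. Both replicates of either gene thus sat close to each other and well below the controls. MCM4 (ENSG00000104738) was at 166 and 113 FPKM in control cells and at 68.7 and 81.6 FPKM after si-PLANE.1, a log2 fold change of -0.87 ± 0.13. MCM6 (ENSG00000076003, chr2:136597196-136634013) was at 19.9 and 13.6 FPKM in control cells and at 10.7 and 10.2 FPKM after si-PLANE.1, a log2 fold change of -0.75 ± 0.18. For MCM4 and MCM6 the distance to si-PLANE.1 was smaller from the second control library than from the first. MCM7 (ENSG00000166508, chr7:99689856-99699563) was at 86.9 and 79.6 FPKM in control cells and at 60.3 and 60.2 FPKM after si-PLANE.1, a log2 fold change of -0.61 ± 0.12 (unadjusted p = 0.000839 in edgeR). MCM3 (ENSG00000112118, chr6:52128812-52149679) was at 32.8 and 28.8 FPKM in control cells and at 21.3 and 21.2 FPKM after si-PLANE.1, a log2 fold change of -0.57 ± 0.15. MCM7 and MCM3 thus lay nearer to the controls than MCM2 or MCM5 in the gene totals. That order depended on the choices made, since MCM6 was at -0.48 without the first si-ctrl library, and MCM5 at -0.42 and MCM3 at -0.82 when the transcript with the most counts stood for each gene. Exons of MCM2 overlap those of an antisense lncRNA, and exons of MCM7 overlap those of AP4M1 on the other strand and of MIR93, and the strand setting of the counting is not given in the sources used here.

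The loaders CDC6 and CDT1 were lower as well. CDC6 (ENSG00000094804, chr17:38444131-38460909) was at 14.4 and 13.8 FPKM in control cells and at 8.18 and 6.14 FPKM after si-PLANE.1, a log2 fold change of -0.87 ± 0.18 (unadjusted p = 0.00144 in edgeR). CDT1 (ENSG00000167513, chr16:88870197-88875666) was at 24.2 and 22.5 FPKM in control cells and at 13.6 and 15.6 FPKM after si-PLANE.1, a log2 fold change of -0.79 ± 0.17. MCM10 (ENSG00000065328, chr10:13203558-13253110) was at 10.3 and 8.06 FPKM in control cells and at 5.81 and 5.88 FPKM after si-PLANE.1, a log2 fold change of -0.70 ± 0.18. The inhibitor was also lower: GMNN (ENSG00000112312, chr6:24775159-24786327) was at 20.4 and 12.5 FPKM in control cells and at 10.5 and 10.6 FPKM after si-PLANE.1. Its log2 fold change of -0.64 ± 0.24 had the largest p of the 10 (unadjusted p = 0.0284, adjusted p = 0.423 in edgeR), and its second control library lay close to the si-PLANE.1 libraries. Without the first si-ctrl library, the log2 fold change of GMNN was -0.33. The ratio of CDT1 to GMNN in FPKM was 1.18 and 1.80 in si-ctrl and 1.29 and 1.48 in si-PLANE.1, which overlap.

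After si-PLANE.2 the same genes were higher in counts than in si-ctrl, and all 10 passed the test of edgeR. The log2 fold changes ran from 0.43 (CDT1) to 1.49 (MCM2) with a median of 1.12, while the median over all 14168 genes tested was -0.027. The background was high in this comparison, as 31.8% of all genes were called higher and 32.3% lower, and the FPKM of 30.9% of all genes was higher in both si-PLANE.2 libraries than in either control. The split of all calls, 4512 higher and 4571 lower, depended on the scaling, and was 3006 higher and 5105 lower with limma on log2(FPKM + 1), where the median over all genes was -0.22. On that scale 6 of the 10 members passed, namely the ring subunits other than MCM4, together with CDC6.

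MCM2 rose from 18.2 and 17.9 FPKM to 45.8 and 49.6 FPKM (log2 fold change 1.49 ± 0.10, adjusted p = 1.7e-05 in edgeR). MCM6 rose to 39.7 and 37.2 FPKM, a log2 fold change of 1.39 ± 0.16, and MCM7 to 138 and 144 FPKM, a log2 fold change of 1.31 ± 0.09. In these 3 genes both si-PLANE.2 libraries lay well above both control libraries. MCM3 rose to 49.3 and 45.0 FPKM (log2 fold change 1.13 ± 0.11), CDC6 to 25.0 and 22.2 FPKM (1.13 ± 0.10) and MCM5 to 58.0 and 59.0 FPKM (0.85 ± 0.10). GMNN was at 29.6 and 24.0 FPKM, a log2 fold change of 1.12 ± 0.21 (adjusted p = 0.0027 in edgeR), and the ratio of CDT1 to GMNN was 0.864 and 1.21. The remaining 3 genes moved less. MCM10 was at 11.8 and 11.3 FPKM, a log2 fold change of 0.58 ± 0.14 (adjusted p = 0.00907 in edgeR), and without the third si-PLANE.2 library its adjusted p was 0.0798. CDT1 was at 25.6 and 28.9 FPKM, a log2 fold change of 0.43 ± 0.14 (adjusted p = 0.028 in edgeR), and its call was lost without the first si-ctrl library (adjusted p = 0.0668) and without either si-PLANE.2 library (adjusted p = 0.107 and 0.129). MCM4 was at 133 and 117 FPKM, between the 2 control libraries, so that its FPKM overlapped between the groups while its counts rose (log2 fold change 0.74 ± 0.10, adjusted p = 0.000523 in edgeR). The transcripts of MCM4 differ widely in length, which enters the FPKM and not the counts.

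**Figure D2:**
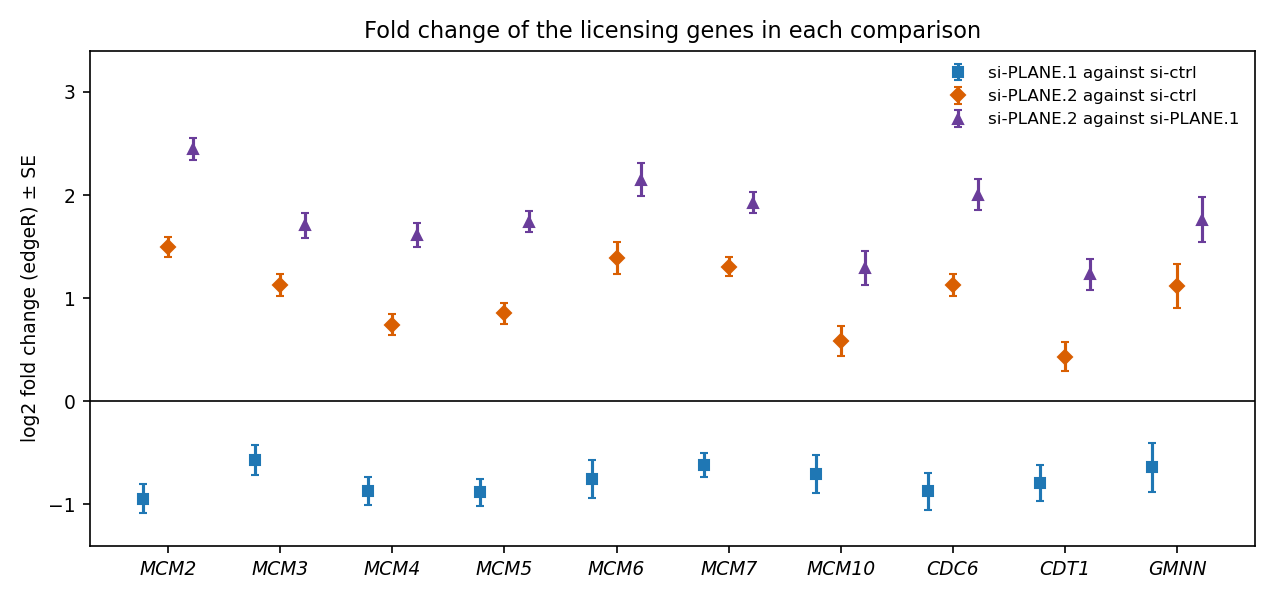
log2 fold change with its SE from edgeR for the 10 licensing genes, in si-PLANE.1 against si-ctrl, si-PLANE.2 against si-ctrl and si-PLANE.2 against si-PLANE.1 (2 libraries per group). The first lies below 0 for each gene (-0.95 to -0.57) and the other two lie above 0 (0.43 to 1.49 and 1.23 to 2.45).

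The 2 siRNAs were compared directly, since both comparisons with si-ctrl share the control libraries. All 10 genes were higher with si-PLANE.2 than with si-PLANE.1 and passed the test, with log2 fold changes from 1.23 (CDT1) to 2.45 (MCM2) and a median of 1.75, while the median over all 14440 genes was -0.062. The background was 31.1% of genes called higher and 33.4% called lower, and 28.2% of all genes had non-overlapping, higher FPKM, which was the case for 10 of 10 members. The call of MCM4 was lost with limma on log2(TPM + 1) (adjusted p = 0.0894) and that of MCM10 with its transcript with the most counts (adjusted p = 0.108 in edgeR). In FPKM, the mean of MCM2 was 4.62 times as high with si-PLANE.2, that of MCM6 3.66 times, that of MCM5 3.32 times and that of CDC6 3.29 times. MCM4 differed least on this scale, at 1.66 times, followed by CDT1 at 1.87 times and MCM10 at 1.98 times.

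Since MCM2 to MCM7 form a ring with 1 copy of each subunit, their shares of the summed FPKM were compared between libraries. MCM4 made up 46.2% and 38.7% of the sum in si-ctrl, 36.2% and 40.7% in si-PLANE.1, and 28.7% and 25.9% in si-PLANE.2. MCM2 made up 5.08% and 6.13% in si-ctrl, 5.23% and 5.36% in si-PLANE.1, and 9.88% and 10.98% in si-PLANE.2. The highest subunit was 9.10 and 8.29 times the lowest in si-ctrl and 3.47 and 3.87 times the lowest in si-PLANE.2. When each gene was represented by its transcript with the most counts, a choice made after the short MCM4 transcripts had been seen, MCM4 made up 22.02% and 22.9% in si-ctrl and 17.3% in both si-PLANE.2 libraries. MCM2 then made up 13.0% and 15.1% in si-ctrl and 13.3% and 12.9% in si-PLANE.2, so the shift in its share was seen in the gene totals and not in the main transcripts. The highest subunit was then 5.01 and 3.27 times the lowest in si-ctrl and 6.33 and 6.16 times in si-PLANE.2, so the narrower range of the gene totals turned into a wider one. The levels are of RNA, and the amounts of the proteins are not measured here.

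**Figure D3:**
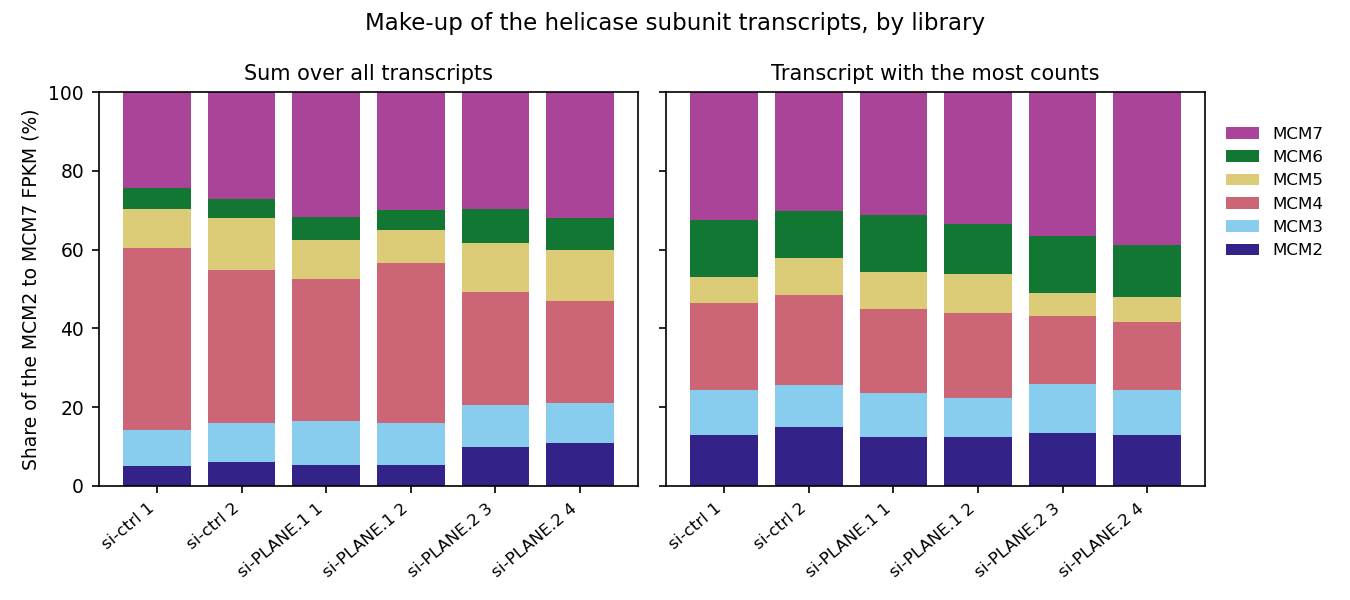
Share (%) of the FPKM summed over MCM2 to MCM7 in each of the 6 libraries, from gene totals (left) and from the transcript of each gene with the most counts (right). In gene totals MCM4 is at 46.2% and 38.7% in si-ctrl and at 28.7% and 25.9% in si-PLANE.2, and on the right at 22.02% and 22.9% and at 17.3%.

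The 10 genes had 78 transcripts in the tables, of which 47 reached 1 FPKM in some library. In si-PLANE.1 against si-ctrl, 0 of 40 transcripts tested passed the adjusted threshold of edgeR, and 12 were lower and 0 higher at an unadjusted p under 0.05, against 2.45% of all transcripts lower. In si-PLANE.2 against si-ctrl, 14 of 43 were higher and 4 lower, against 12.9% and 12.7% of all transcripts. For 8 of the members the transcript that was highest in si-ctrl passed the test after si-PLANE.2 (MCM4 in the lower direction), and those of CDT1 and MCM10 did not. MCM2-201, the coding transcript of 3619 bases, was at 17.7 and 17.1 FPKM in control cells, 9.26 and 10.1 FPKM after si-PLANE.1 and 36.7 and 36.1 FPKM with si-PLANE.2. MCM2-206, annotated as a target of nonsense-mediated decay, was listed at 0 in the other 4 libraries and was at 6.75 and 10.9 FPKM with si-PLANE.2 (adjusted p = 0.00974 in edgeR), and MCM2-202 was at 0.36 and 0.37 FPKM in control cells and 1.69 and 2.32 FPKM with si-PLANE.2. Part of the MCM2 gene total after si-PLANE.2 was thus assigned to transcripts that were at or near 0 in the controls.

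In FPKM, MCM4 was the member whose total rested most on short transcripts. In counts, its longest abundant transcript made up 77.3% and 79.4% of the gene in si-ctrl and 90.6% and 91.6% in si-PLANE.2. This transcript, ENST00000523944 of 4105 bases, was at 29.9 and 26.0 FPKM in control cells and 15.8 and 17.5 FPKM after si-PLANE.1. With si-PLANE.2 it was at 47.5 and 48.4 FPKM (log2 fold change 1.06 ± 0.11, adjusted p = 0.0111 in edgeR). MCM4-207, a retained-intron transcript of 734 bases, had the highest mean level in si-ctrl, at 38.9 and 30.6 FPKM, and was at 17.1 and 14.4 FPKM after si-PLANE.1. It fell to 1.26 and 1.4 FPKM with si-PLANE.2 (log2 fold change -4.36 ± 0.34, adjusted p = 0.00779 in edgeR). MCM4-208, another retained-intron transcript of 498 bases, rose from 6.64 and 6.48 FPKM in control cells to 32.9 and 31.7 FPKM with si-PLANE.2, and was listed at 0 in both si-PLANE.1 libraries. The long transcript and MCM4-208 were thus lowest after si-PLANE.1 and highest with si-PLANE.2, whereas MCM4-207 was lowest with si-PLANE.2. MCM4-213 and MCM4-204, of 354 and 366 bases, varied between replicates, with 40.8 and 23.1 FPKM and 38.9 and 18.6 FPKM in the si-ctrl libraries.

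Other members also had short transcripts that differed from their main one. MCM5-202 and MCM5-201, the coding transcripts of 2402 and 3534 bases, rose to 29.3 and 29.0 FPKM and to 16.0 and 17.6 FPKM with si-PLANE.2, from 12.9 and 12.5 FPKM and from 8.82 and 10.5 FPKM in control cells. MCM5-203, of 739 bases, was at 9.52 and 11.2 FPKM in control cells and 3.96 and 2.57 FPKM after si-PLANE.1, and was listed at 0 in si-PLANE.2, whereas MCM5-205, of 551 bases, was listed at 0 in the other groups and was at 9.45 and 11.1 FPKM with si-PLANE.2. The retained-intron transcript MCM5-209 fell from 3.42 and 3.78 FPKM to 1.27 and 1.23 FPKM. Short transcripts of 1 gene thus moved in opposite directions between the groups. MCM7-201 rose from 44.1 and 34.3 FPKM in control cells to 101 and 109 FPKM with si-PLANE.2, while ENST00000491245 of MCM7, with 648 bases, went from 15.6 and 18.6 FPKM to a listed 0. MCM3-201 rose from 15.6 and 11.9 FPKM to 34.6 and 32.3 FPKM, and MCM3-205 from 5.09 and 4.87 FPKM to 8.38 and 8.85 FPKM. MCM6-201 carried nearly the whole gene, at 19.7 and 13.6 FPKM in control cells and 39.5 and 37.1 FPKM with si-PLANE.2. CDC6-201 rose from 10.8 and 9.58 FPKM to 20.2 and 19.8 FPKM, and GMNN-201 from 7.34 and 7.11 FPKM to 18.3 and 12.2 FPKM. CDT1-201 was at 9.78 and 13.5 FPKM in control cells and 13.6 and 13.5 FPKM with si-PLANE.2 (adjusted p = 0.155 in edgeR), and MCM10-206 at 5.64 and 2.63 FPKM and at 8.42 and 8.7 FPKM (adjusted p = 0.0798 in edgeR).

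**Figure D4:**
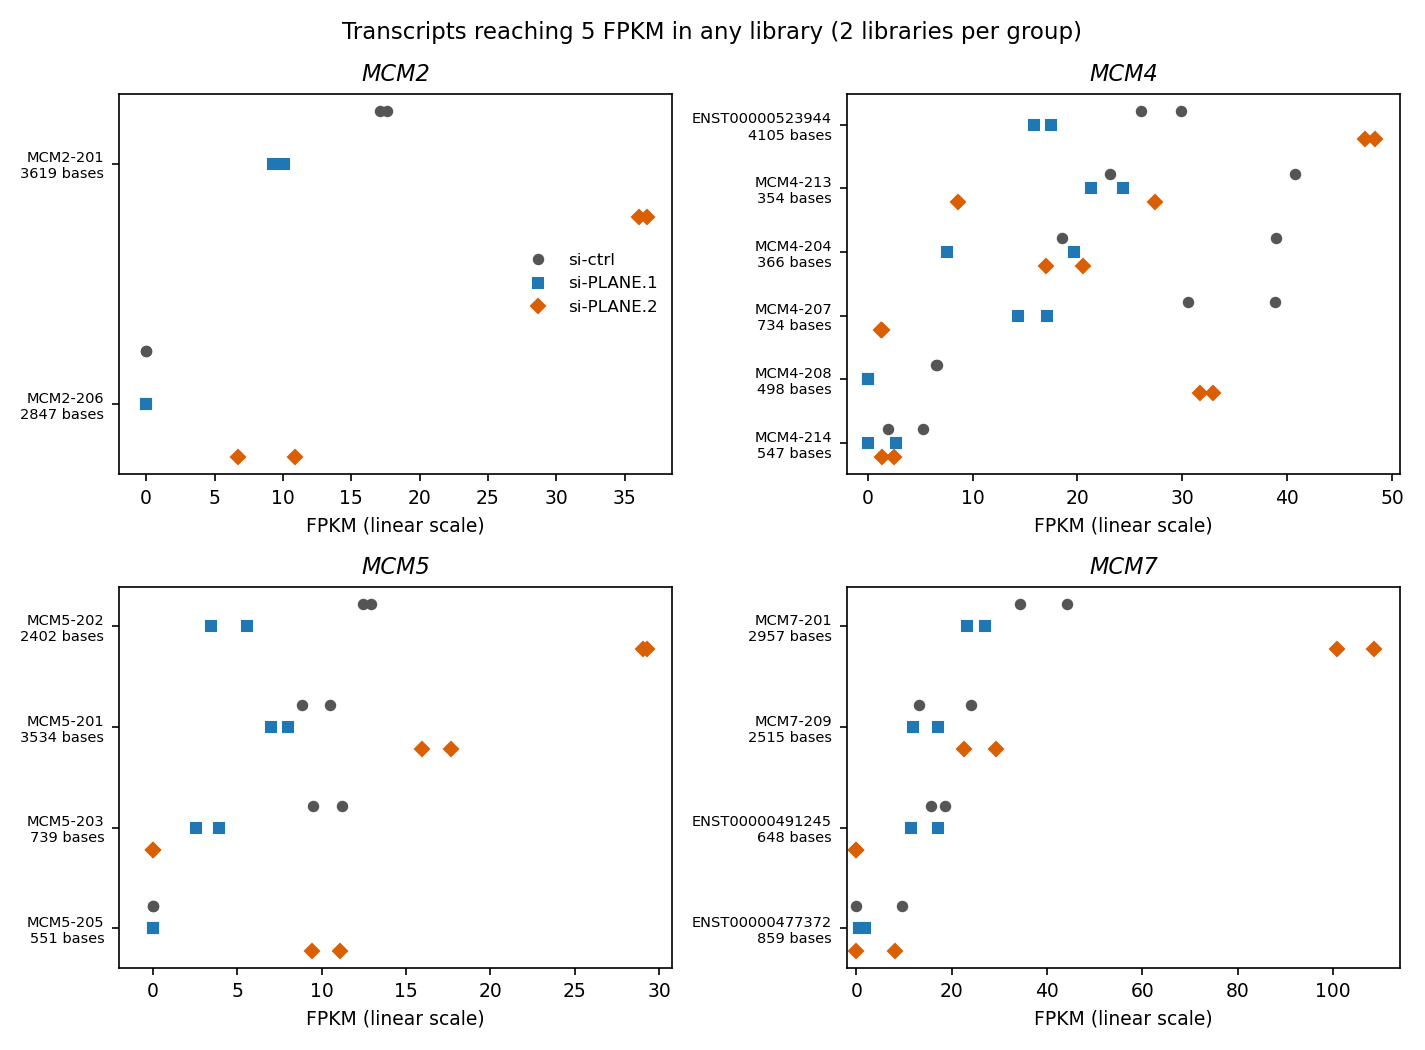
FPKM (linear scale) of the transcripts of MCM2, MCM4, MCM5 and MCM7 that reached 5 FPKM in any library, with 2 libraries per group. MCM2-201, ENST00000523944, MCM5-202, MCM5-201 and MCM7-201 are lowest in si-PLANE.1 and highest in si-PLANE.2, whereas MCM4-207, MCM5-203 and ENST00000491245 are at or near 0 in si-PLANE.2.

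The wider pathway was described with 38 other licensing and firing genes, of which 37 were tested. In si-PLANE.1 against si-ctrl, 0 passed the adjusted threshold of edgeR. In either direction 29 were lower and 8 higher, against 7230 and 7299 of all 14535 genes tested. At an unadjusted p under 0.05 in edgeR, 10 were lower and 0 higher, against 838 (5.77%) and 679 of all genes. The median log2 fold change was -0.20, against -0.77 for the 10 members. The smallest p-values were those of DTL, the receptor that directs CDT1 to degradation (log2 fold change -0.86 ± 0.15), of CCNA2, an S-phase cyclin (-0.69 ± 0.16), of TICRR, a firing factor (-0.53 ± 0.12), of GINS2, a helicase cofactor (-0.70 ± 0.20), and of CDK2 (-0.50 ± 0.15). In FPKM the groups overlapped for CDK2, at 30.58 and 35.95 in control cells and 32.6 and 29.09 after si-PLANE.1, but not for DTL, CCNA2, TICRR or GINS2. The log2 fold changes of the 7 origin recognition genes were closer to 0, with a median of -0.11 and ORC1 lowest at -0.56. A match to the E2F letters was found in 11 of the 32 genes of this list that had a promoter window, or 34.4%.

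After si-PLANE.2 the other genes moved in both directions. Past the threshold 14 of 37 were higher and 16 lower, against 31.8% and 32.3% of all genes. Their median log2 fold change was -0.012, against 1.12 for the members. With limma the counts were 6 higher and 16 lower on log2(FPKM + 1) and 3 higher and 21 lower on log2(TPM + 1). Over all 14168 genes tested, they were 3006 higher and 5105 lower on the former and 2315 higher and 5776 lower on the latter. The largest rises were in RECQL4, a helicase needed for firing (1.70 ± 0.10, from 10.5 and 10.2 to 28.5 and 29.1 FPKM), in the helicase cofactors CDC45 (1.46 ± 0.15), GINS3 (1.30 ± 0.15) and GINS4 (1.29 ± 0.11), and in LRWD1, which binds the origin recognition complex (0.91 ± 0.11). The largest falls were in ORC6 (-1.998 ± 0.12, from 96.4 and 107 to 25.1 and 23.8 FPKM) and ORC4 (-1.38 ± 0.10), subunits of the origin recognition complex, in CUL4B, a ubiquitin ligase scaffold (-1.08 ± 0.11), in DBF4, the activator of the CDC7 kinase (-1.003 ± 0.13), and in KAT7, a histone acetyltransferase (-0.9997 ± 0.11). These fold changes are of counts, and in FPKM the groups overlapped for GINS4, at 21.1 and 26.8 FPKM in control cells and 21.7 and 25.6 FPKM with si-PLANE.2. They lay close for CDC45 (18.3 and 9.96 against 21.2 and 19.1 FPKM), and the distance for ORC4 was smaller than in counts (31.0 and 29.7 against 24.5 and 24.4 FPKM). Within origin recognition, 4 of 7 genes fell (ORC2, ORC3, ORC4 and ORC6) and 2 rose (ORC1 and LRWD1), and within firing 8 of 17 rose and 7 fell, which is to be read against the 31.8% and 32.3% of all genes that were called. Compared with si-PLANE.1 directly, 16 of the 37 were higher and 10 lower with si-PLANE.2, against 31.1% and 33.4% of all genes, from RECQL4 at 2.04 ± 0.16 to ORC6 at -2.04 ± 0.12. After the removal of either si-PLANE.2 library, which left a single library in that group, fewer of these genes were called higher than in si-ctrl. Fewer of all genes were called higher as well. The same limit on library preparation holds for these genes, and both PLANE siRNAs were compared with the same control libraries.

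**Figure D5:**
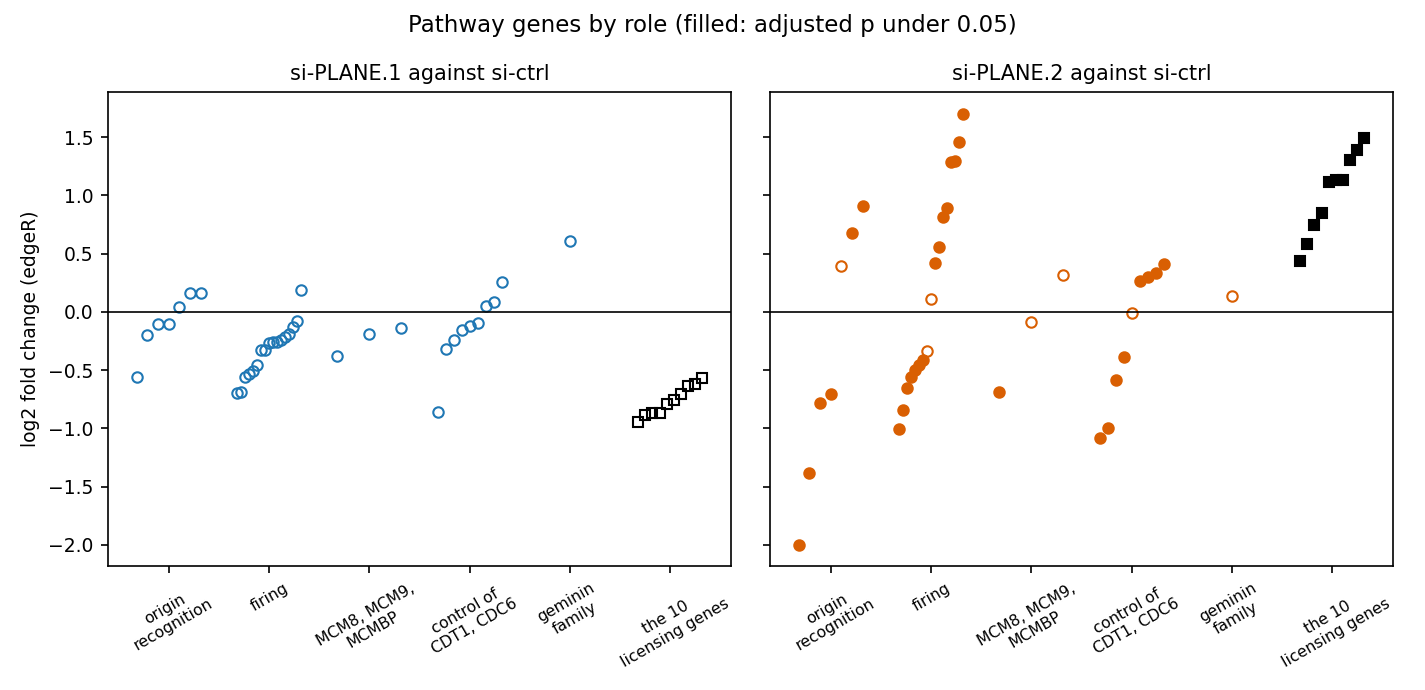
log2 fold change from edgeR of 37 other licensing and firing genes by role (circles) and of the 10 licensing genes (squares), for each PLANE siRNA against si-ctrl, with filled symbols for an adjusted p under 0.05. In the si-PLANE.1 panel no symbol is filled, and in that of si-PLANE.2 the 10 squares lie between 0.43 and 1.49 while the circles span -1.998 to 1.70.

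Across the 6 libraries, the members varied together. Pearson's r of each member with the mean of the others, as z-scores of log levels, was 0.94 to 0.99 for 9 genes and 0.75 for MCM4, a description over 6 libraries that fall into 3 groups. The genes most like the mean of the members, out of 10173 with a mean of at least 5 FPKM, were TFPI2 (r = 0.998), PA2G4 (r = 0.997), HMGB3 (r = 0.993), CDCA4 (r = 0.991), BOLA3 (r = 0.991) and DHX15 (r = 0.989). TFPI2, a protease inhibitor, was at 154 and 109 FPKM in control cells, 48.7 and 51.5 FPKM after si-PLANE.1 and 237 and 235 FPKM with si-PLANE.2. In all, 137 genes had an r of at least 0.95, and the 6 points share their groups, depth and library preparation.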

How the data were processed

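RNA was extracted with TRIzol and sequenced as short reads. The authors deposited, per transcript and library, an expected count without normalization and an FPKM value normalized for length and depth. The submitters' processing notes name Trimmomatic 0.30, HISAT2 2.0.1, HTSeq 0.6.1, DESeq and hg19, and the tool behind the expected counts is not given in the sources used here. The 2 tables share the si-ctrl columns, and 0 values differed between them.

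Transcripts were summed per gene. The 16723 of 180253 transcripts without a gene identifier, with 3.03% to 3.62% of counts, were left out. The main test was edgeR 4.0.16 in R 4.3.3 (TMM factors, then glmQLFit and glmQLFTest) on the rounded expected counts of genes with a mean of at least 0.5 FPKM. Each siRNA against si-ctrl was fitted on its 4 libraries and the siRNAs against each other on all 6, and p-values were adjusted over all genes by Benjamini-Hochberg. The SE is the log2 fold change over the root of F. Alternatives were DESeq2 1.42.0, limma 3.58.1 with pseudocounts of 1 and 0.1, other scalings and minimums, single transcripts, each library left out and a replicate block. Scripts were tested on simulated data. A marker gene of the lists is not reported here. Gene positions are from GENCODE on hg19 and promoters from RefSeq.

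The members and lists were chosen with earlier results of these data known. Named were all members, the other pathway genes with the largest changes (where none passed, those with the smallest p), the transcript highest in si-ctrl or past the threshold, and the 6 most similar genes.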

Additional observations from a re-analysis of the deposited data

Results flagged for a closer look

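In the main edgeR fits, the direction was negative for si-PLANE.1 and positive for si-PLANE.2 in each of the 10 licensing genes. In FPKM, MCM4 overlapped between si-ctrl and si-PLANE.2, with means of 139 and 125. For all 10 genes, the difference from si-ctrl differed between the PLANE siRNAs by the edgeR test of si-PLANE.2 against si-PLANE.1. The log2 fold changes of that test were 2.45 for MCM2, 2.15 for MCM6, 2.004 for CDC6, 1.93 for MCM7, 1.76 for GMNN, 1.74 for MCM5, 1.71 for MCM3, 1.62 for MCM4, 1.29 for MCM10 and 1.23 for CDT1, beside 31.1% of all genes called higher in the same comparison. In these libraries the siRNA and the library preparation cannot be told apart, as the histone genes without a poly(A) tail had a median of 86.1 and 127 FPKM in si-PLANE.1 and of 0.36 and 0.4 FPKM in si-PLANE.2.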

How the results depend on the processing

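For si-PLANE.1 against si-ctrl, the 10 members kept their lower direction under every alternative. Members past the threshold numbered 0 in edgeR, 3 with all 6 libraries in one fit, 7 with DESeq2 and 10 with the replicate block. Of all genes tested, 0.0275%, 0.097%, 0.612% and 5.03% were called lower in the same fits. Of the other pathway genes, the block called 9 lower and DESeq2 called 2. The block was possible for this comparison alone, since the labels number the si-PLANE.2 libraries 3 and 4. It called 494 genes higher and 731 lower in all. The difference between the first and second si-ctrl library correlated with that between the first and second si-PLANE.1 library (r = 0.335 over 14535 genes). The labels do not say that a number marks a shared batch. The median of the members was -0.62 with limma on log2(FPKM + 1) and -0.56 on log2(TPM + 1).

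For si-PLANE.2 against si-ctrl, 6 members passed with limma on log2(FPKM + 1), log2(FPKM + 0.1) and log2(TPM + 1), with medians of 0.67, 0.70 and 0.52. Of all 14168 genes tested, 3006, 2974 and 2315 were called higher in these fits. The members' median was 0.95 with total counts and 1.44 with the most abundant transcript. It was 1.27 with the transcript with the most counts, an alternative chosen after seeing the data. MCM4 reversed to -0.13 with FPKM and either pseudocount, to -0.29 with TPM and to -4.28 with its most abundant transcript, and MCM10 to -0.023 with its transcript with the most counts. TPM moved the median of all genes to -0.37. Of the other pathway genes, 6, 6 and 3 were higher in those limma fits, 7 with total counts and 7 with the most abundant transcript. With the transcript with the most counts, 9 were lower, beside 3563 of all 13278 genes tested. The all-gene counts called higher were 3626 of 14168 with total counts and 3349 of 13453 with the most abundant transcript. Without each library, the members' median ranged from 0.99 to 1.20, and the other genes higher ranged from 7 to 16 and lower from 10 to 17.

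For si-PLANE.2 against si-PLANE.1, the median was 1.28, 1.24 and 1.02 in the limma fits with 0.1, with 1 and with TPM, 1.49 with total counts, 2.20 with the most abundant transcript and 1.94 with the transcript with the most counts. It ranged from 1.72 to 1.84 without each library. MCM4 reversed to -3.09 with its most abundant transcript. Of the other genes, 6, 6 and 5 were higher in the limma fits and 9 with total counts. Over all 14440 genes tested, 2758, 2777, 1917 and 3297 were called higher in the same fits. With TPM 17 of the other genes were lower, beside 6732 of all genes. With the transcript with the most counts 5 were lower, beside 3963 of 13559 genes tested. The ratio of the highest to the lowest member was 9.49, 9.57 and 78.8 in si-ctrl, si-PLANE.1 and si-PLANE.2 with the most abundant transcript, and 11.1, 9.99 and 35.6 with the transcript with the most counts. The cause of these changes was not tested. With 2 libraries per group, a difference that misses the threshold may still be present.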
